A study of Mus musculus with 4 samples.

Results

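A set of 9 genes of retinoic acid metabolism, binding and reception were followed through the cell types of the caudal E8.5 mouse embryo, in wild-type (WT) and *Grhl3*-null animals. They were *Rdh10*, *Aldh1a2*, *Dhrs3*, *Cyp26a1*, *Crabp1*, *Crabp2*, *Rara*, *Rarb* and *Rarg*, chosen by symbol from the 31055 genes of the deposited count matrices, in which each of the 9 was found once. Droplet-based single-cell RNA sequencing had been run on embryos from crosses of *Grhl3* heterozygous mice, dissected at the 6 to 7 somite stage. The caudal parts of 5 WT and of 3 *Grhl3*-null embryos were each made into 1 pool of cells, and 2 reactions were run per pool, so that 4 libraries (WT 1, WT 2, *Grhl3*-null 1 and *Grhl3*-null 2) were available. The null embryos lack *Grhl3*, a transcription factor of the surface ectoderm needed for neural tube closure, in every cell, and the pools carried no other engineered allele or treatment. Because each genotype was 1 pool, every p-value given here compares 2 pools of cells, and the spread between libraries of a genotype may be technical.

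Retinoic acid is a diffusible signal made from retinol, which reaches the embryo from the maternal circulation. Rdh10 oxidises retinol to retinaldehyde and Aldh1a2 oxidises retinaldehyde to retinoic acid, whereas Dhrs3 returns retinaldehyde to retinol and Cyp26a1 breaks retinoic acid down. Crabp1 and Crabp2 bind retinoic acid in the cytoplasm, and the nuclear receptors RAR alpha, beta and gamma, encoded by *Rara*, *Rarb* and *Rarg*, bind DNA with RXR partners and regulate genes when the ligand is present. In the elongating trunk, synthesis in the somites and degradation in the tail end are known to set up a gradient that opposes Fgf and Wnt signalling around the neuromesodermal progenitors (NMPs), which give rise to spinal cord and paraxial mesoderm.

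In the mouse genome build GRCm38 (mm10), with GENCODE gene models, *Rdh10* lies at chr1:16105774-16133734, *Aldh1a2* at chr9:71215789-71296243, *Dhrs3* at chr4:144892827-144928209 and *Cyp26a1* at chr19:37697798-37701536, all on the plus strand. *Crabp1* lies at chr9:54764748-54773110, *Crabp2* at chr3:87948666-87953376 and *Rara* at chr11:98927818-98974942, also on the plus strand. *Rarb* at chr14:16430839-16819156 and *Rarg* at chr15:102234938-102257517 are on the minus strand. Receptor dimers bind a 6-base site and its repeat in the same orientation, and in a DR5 element the repeats are 5 bases apart. RefSeq promoter windows on GRCm38.p6, from 250 bases before to 50 bases after a transcript start, were at hand for 7 of the 9 genes (13 windows), and *Rarb* and *Cyp26a1* were the members with a DR5 match on either strand. Of all 32851 windows, 32 (0.0974%) held one. A spacing of 1 base was matched in 0.222% and of 2 bases in 0.268% of all windows, none of them of a member. The 120 bases before the start are printed 5′ to 3′ on the strand of the gene, with the DR5 match in capitals, for *Rarb* (chr14:16575477-16575596, minus strand, inside the GENCODE *Rarb* gene) and for *Cyp26a1* (chr19:37697688-37697807, plus strand, just before and at the 5′ end of the gene). They are shown because these were the members with a match, and both genes differed between genotypes in several classes.
Rarb: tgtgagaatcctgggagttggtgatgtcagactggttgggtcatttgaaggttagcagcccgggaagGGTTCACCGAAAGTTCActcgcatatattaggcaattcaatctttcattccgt
Cyp26a1: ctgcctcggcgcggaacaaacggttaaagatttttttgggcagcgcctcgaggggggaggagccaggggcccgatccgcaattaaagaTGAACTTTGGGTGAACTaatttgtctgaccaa
In *Rarb* the match ran from 53 to 37 bases before the start in the orientation of the gene. In *Cyp26a1* it ran from 32 to 16 bases before the start on the opposite strand. A match of letters is a description of the window, and no binding was measured.

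The libraries held between 217559026 and 232903564 unique molecular identifiers (UMIs, which mark single captured transcripts) in 5698 to 6186 cells, 24239 cells in all. After filtering, 20198 cells remained, with a median of 33391 to 38070 UMIs per cell. *Grhl3* reached 30.8 and 25.1 counts per 1000000 UMIs (CPM) in WT surface ectoderm-like cells (surface ectoderm with neural plate border) and 0.293 and 0.342 CPM in those of the null libraries, so that the labels fitted the targeted gene. Cells fell into 17 clusters, of which 14 took a name from marker genes with all retinoid genes left out. The 3 unnamed clusters are called by their leading genes: a *Prrx1* and *Hand2* cluster of 3306 cells, a *Lefty2* cluster of 404 cells and a *Hes3* cluster of 120 cells, the last pair of low depth and with almost no mitochondrial UMIs. The pools also differed in other ways. The share of male cells, from Y-linked genes and *Xist*, was 26.5% and 27.0% in the WT libraries and 55.6% and 57.5% in the null libraries. Posterior Hox genes (paralogue groups after the 9th) summed to 109 and 113 CPM in WT and 24.5 and 23.8 CPM in null cells. The pre-somitic mesoderm-like class held 503 and 487 cells in the WT libraries, nearly all female, and 4 and 2 cells in the null libraries, so it gave no comparison of genotypes. Embryo, sex and genotype cannot be told apart in pools of so few animals, and the members are therefore also given within male and within female cells.

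The synthesis enzymes were highest in mesoderm. Levels are in CPM of a class in a library, and mean ± SD is over the 2 WT libraries. *Rdh10* was highest in the intermediate mesoderm-like class, at 41.4 ± 0.95 CPM, followed by the Mesenchyme 1-like class at 23.8 ± 1.4 CPM. Neither overlapped the class beneath it. The Mesenchyme 2-like class, at 18.4 ± 1.2 CPM, and the paraxial mesoderm-like class, at 16.3 ± 1.6 CPM, came next and did not overlap each other. From the notochord-like class (10.1 ± 4.3 CPM) downwards most neighbouring classes overlapped, and the neural, surface and gut classes lay between 6.54 and 8.83 CPM. The *Prrx1* and *Hand2* cluster, large in number of cells, held 20.8% of the *Rdh10* UMIs of a WT library at 14.9 CPM.

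*Aldh1a2* was concentrated in the paraxial mesoderm-like class, the class of the forming somites. This class reached 278 and 243 CPM in the WT libraries (260 ± 25) and held 59.0% of all *Aldh1a2* UMIs of a WT library. The *Lefty2* cluster followed at 104 ± 4.5 CPM, and the Mesenchyme 1-like (56.9 ± 17 CPM) and intermediate mesoderm-like (55.0 ± 0.30 CPM) classes overlapped each other. The somitic mesoderm-like class, which carries the *Tbx6* and *Dll1* markers of unsegmented mesoderm, was lower at 44.9 ± 0.75 CPM. The neuroepithelium-like class (27.9 ± 4.6 CPM), the *Prrx1* and *Hand2* cluster (26.7 ± 0.43 CPM) and the notochord-like class (25.9 ± 20 CPM) did not differ beyond their spread. NMP-like cells were at 7.62 ± 0.19 CPM, and the surface ectoderm-like class was at 4.38 ± 0.60 CPM.

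*Dhrs3* was low everywhere. The surface ectoderm-like class was highest at 9.93 ± 0.92 CPM and overlapped the notochord-like class at 8.83 ± 2.5 CPM. Each further neighbour in the order overlapped the one above it, down to 1.27 ± 0.87 CPM in intermediate mesoderm-like cells. The class in which *Rdh10* was highest was thus the class in which *Dhrs3* was lowest, on 11 UMIs in the WT libraries.

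*Cyp26a1* was highest at the caudal end of the tissue. NMP-like cells were at 169 and 166 CPM in the WT libraries (167 ± 1.6) and held 35.8% of the *Cyp26a1* UMIs of a WT library. The pre-somitic mesoderm-like class overlapped them at 155 ± 16 CPM. The gut-like class (123 ± 12 CPM) and the somitic mesoderm-like class (86.6 ± 11 CPM) came next, and both stood apart from the class above. The surface ectoderm-like class was at 74.1 ± 7.9 CPM and the neuroepithelium-like class at 42.9 ± 3.8 CPM. *Cyp26a1* was at 15.0 ± 5.7 CPM in the paraxial mesoderm-like class, where *Aldh1a2* was highest, and was lowest in the Mesenchyme 2-like class at 6.69 ± 1.2 CPM. Over the 14 classes with at least 20 cells in every library, log2(CPM + 1) of *Aldh1a2* and *Cyp26a1* had a Pearson r of -0.38 in WT and -0.52 in null cells, a description over classes that share libraries.

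The binding proteins were seen in nearly every class and had different peaks. *Crabp1* was highest in the *Lefty2* cluster (501 ± 27 CPM) and in the *Prrx1* and *Hand2* cluster (453 ± 15 CPM), which held 29.6% of its UMIs in a WT library. The surface ectoderm-like (363 ± 41 CPM), somitic mesoderm-like (335 ± 0.35 CPM) and pre-somitic mesoderm-like (331 ± 17 CPM) classes overlapped in sequence, and the paraxial mesoderm-like class was at 265 ± 0.69 CPM. It was lower in the neuroepithelium-like class, at 56.6 ± 3.9 CPM, and in the gut-like class, at 27.0 ± 5.7 CPM. *Crabp2* had the reverse place for the neural cells. It was highest in the neuroepithelium-like class (677 ± 3.6 CPM), then in the *Hes3* cluster (611 ± 54 CPM) and in NMP-like cells (454 ± 7.6 CPM), each apart from the next. The *Prrx1* and *Hand2* cluster was at 78.5 ± 4.0 CPM.

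Among the receptors, *Rara* varied least by class. Outside the erythroid-like class (2.05 ± 0.76 CPM) its WT means ran from 10.6 ± 1.3 CPM in the neuroepithelium-like class to 19.6 ± 0.78 CPM in intermediate mesoderm-like cells, and almost every neighbour in the order overlapped. *Rarb*, a receptor gene that retinoic acid itself induces, was highest in the Mesenchyme 2-like (11 ± 0.24 CPM) and neuroepithelium-like (9.95 ± 0.22 CPM) classes. It stood at 10 UMIs (0.346 ± 0.11 CPM) in the pre-somitic mesoderm-like class and at 1.96 ± 0.20 CPM in the somitic mesoderm-like class. *Rarg* had the opposite arrangement along the trunk. It reached 61.6 ± 7.0 CPM in the small *Hes3* cluster, 56.0 ± 0.81 CPM in NMP-like cells and 53.4 ± 0.36 CPM in the *Prrx1* and *Hand2* cluster, against 26.4 ± 0.59 CPM in the neuroepithelium-like class and 15.3 ± 1.8 CPM in the paraxial mesoderm-like class.

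**Figure D1:**
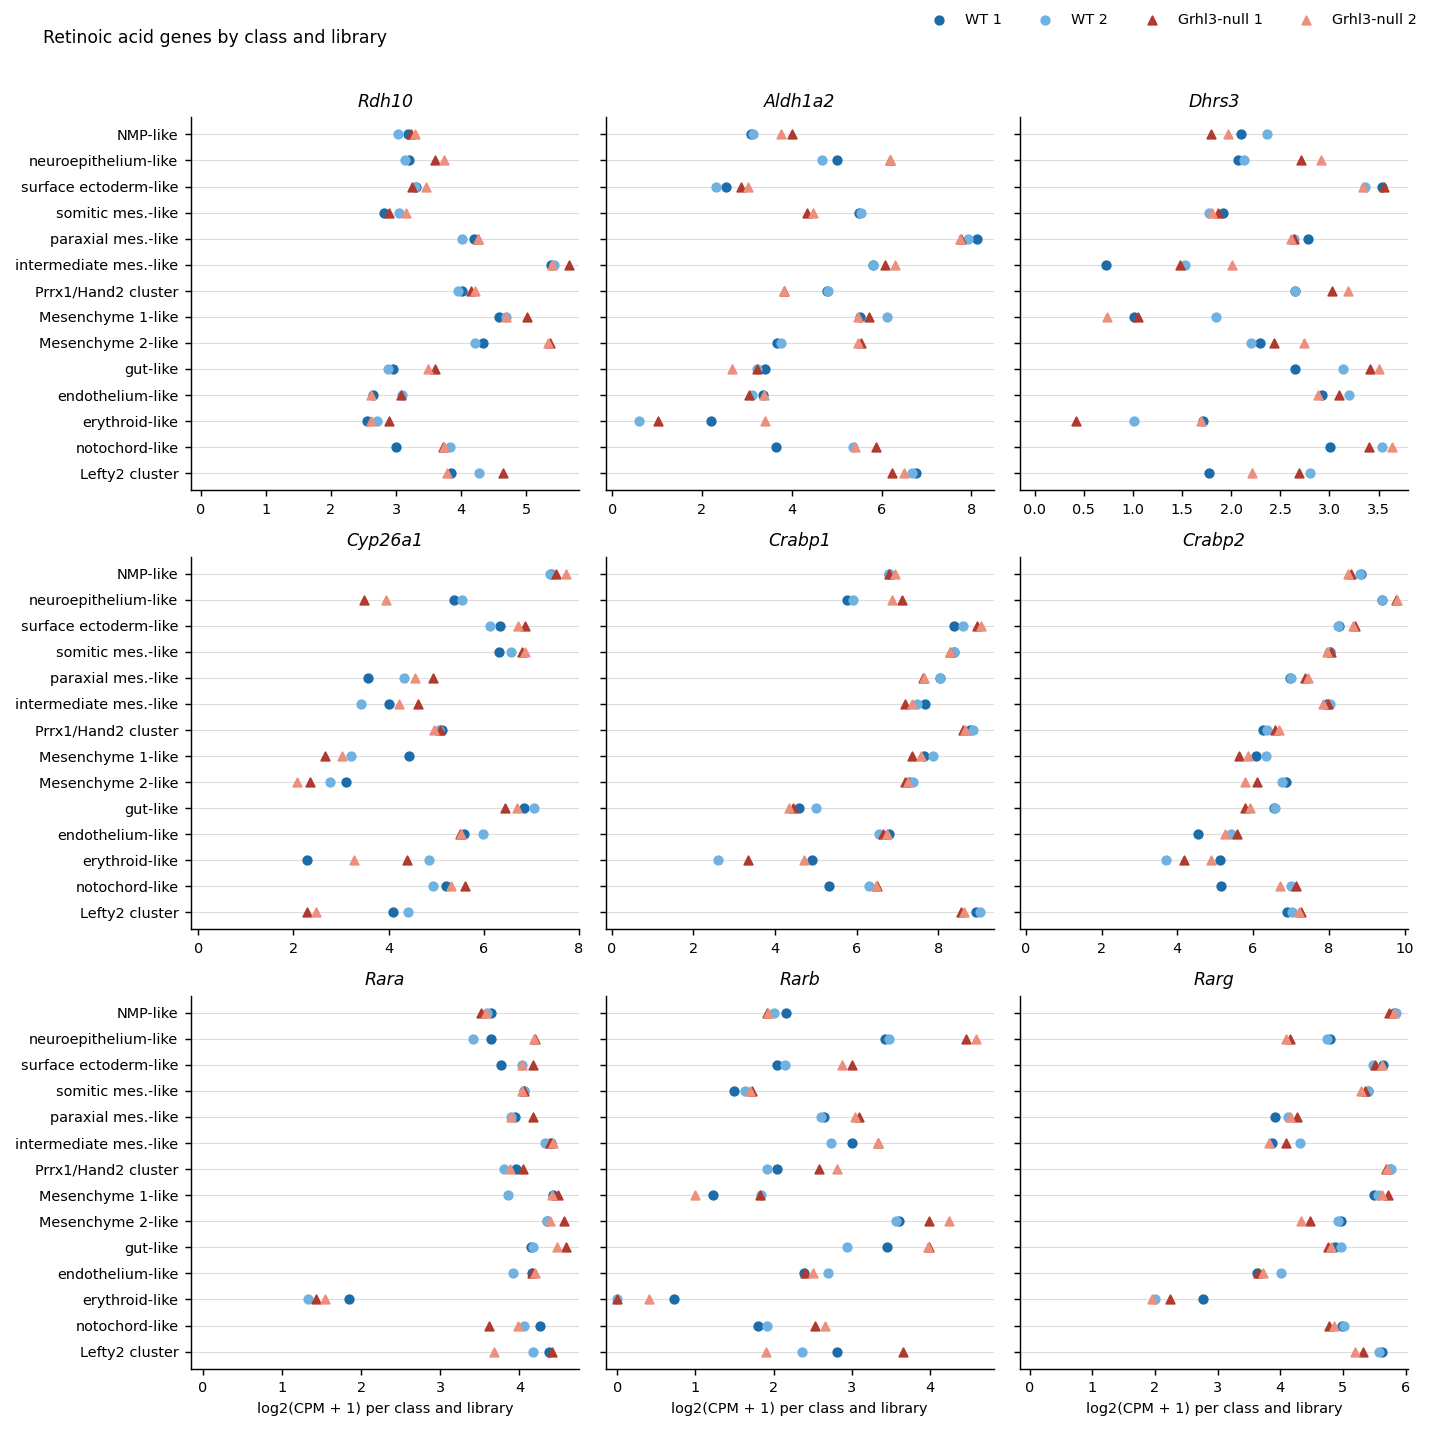
Level of each of the 9 genes in 14 classes of cells, as log2(CPM + 1) on the horizontal axis, with 1 point for each library (circles WT, triangles *Grhl3*-null). The x axes differ between genes. *Aldh1a2* is highest in the paraxial mesoderm-like class and *Cyp26a1* in the NMP-like class in all 4 libraries.

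*Rarb* lies over the 3′ end of *Top2b*, a gene of the opposite strand, and a 3′ kit reads that end. *Top2b* was at 105 and 99.4 CPM in the pre-somitic mesoderm-like cells of the WT libraries, where *Rarb* was at 0.425 and 0.267 CPM. *Top2b* was at 115 and 113 CPM in the Mesenchyme 2-like cells of the same libraries, the class in which *Rarb* was highest. Whether reads of *Top2b* entered the *Rarb* counts was not tested. Free RNA in the droplets was judged in erythroid-like cells, which are not known to use these genes. Of the erythroid-like cells, 11.6%, 2.00%, 3.33% and 8.96% in WT 1, WT 2, *Grhl3*-null 1 and *Grhl3*-null 2 held an *Aldh1a2* UMI, at a median of 36345.5 to 47071 UMIs per cell. In the paraxial mesoderm-like class 84.0%, 84.0%, 93.4% and 93.1% held one, at 37100 to 51940 UMIs per cell. The counts of cells are a biased guide where depth differs, so levels are given as CPM. *Cyp26a1* was at 15.8 ± 17 CPM in WT erythroid-like cells, on 67 UMIs. Its WT levels in the paraxial mesoderm-like (15.0 ± 5.7 CPM) and Mesenchyme 2-like (6.69 ± 1.2 CPM) classes thus did not stand above this control. Cells among the 5% highest doublet scores of a library made up 13.0%, 4.0%, 13.3% and 10.4% of the erythroid-like cells in the same order of libraries. The source of the UMIs in these cells was not tested. *Rarb* was found in 2 of 69, 0 of 50, 0 of 60 and 1 of 67 erythroid-like cells, and 0 of 50 allows a share of cells with a UMI of up to 6.0%, from 3 counts and for counting error only, which is no limit on the share of cells that express the gene. In the neuroepithelium-like class *Rarb* was found in 25.9% and 28.0% of WT cells and in 50.1% and 49.3% of null cells, and in 6.21%, 8.00%, 15.6% and 13.9% once every cell was thinned to 7500 UMIs.

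The genotypes were then compared in each class by edgeR's quasi-likelihood test on UMIs summed per class and library, over all genes of the class, with Benjamini-Hochberg adjustment. A member is called where the adjusted p was under 0.05. Among 120 pairs of a member and a class that could be tested, 48 were called, while 11.8% of all gene and class pairs were called in the same 14 classes. In the neuroepithelium-like class 9 of 9 members were called (7 higher and 2 lower in null cells), where 23.2% of all genes were called. The gut-like class had 7 of 9 (4 higher, 3 lower; 19.5% of all genes), the Mesenchyme 2-like class 6 of 9 (3 and 3; 20.5% of all genes) and the *Prrx1* and *Hand2* cluster 6 of 9 (4 and 2; 11.7% of all genes). The surface ectoderm-like class, in which *Grhl3* is used, had 5 of 9, all higher in these sums, beside 13.9% of all genes. Within male cells alone *Cyp26a1* was lower there (-0.49, adjusted p = 0.014). Within female cells alone *Aldh1a2* (-0.15) and *Rarb* (-0.071) had the opposite sign and were not called. The paraxial mesoderm-like class had 5 of 9 (3 higher, 2 lower) beside 21% of all genes. NMP-like cells had 3 of 9 (2 higher, 1 lower) beside 19.3%, and the somitic mesoderm-like class had 3 of 9 (1 higher, 2 lower) beside 11.5%.

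Fewer calls were made in small classes. The intermediate mesoderm-like class had 2 of 8 members called (3.04% of all genes) and the *Lefty2* cluster 2 of 8 (4.09% of all genes). In 4 classes edgeR called 0 members. They were the Mesenchyme 1-like class (0 of 8, with 0.753% of all genes called and 3 members at an unadjusted p under 0.05), the endothelium-like class (0 of 9, with 0.55% of all genes and 1 such member), the notochord-like class (0 of 9, with 1.87% of all genes and 3 such members) and the erythroid-like class (0 of 6, with 0.303% of all genes and 0 such members). DESeq2 also called 0 in each of these 4 classes, which is no sign that the levels were alike. It called 0 as well in the intermediate mesoderm-like class and the *Lefty2* cluster, and 3 of 9 in the gut-like class. Over all cells of a library 8 of 9 members were called (5 higher and 3 lower), where 35.5% of all genes were. This last comparison also moves with the share of each class, and in such sums fewer cells of a type and less RNA per cell cannot be told apart.

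**Figure D2:**
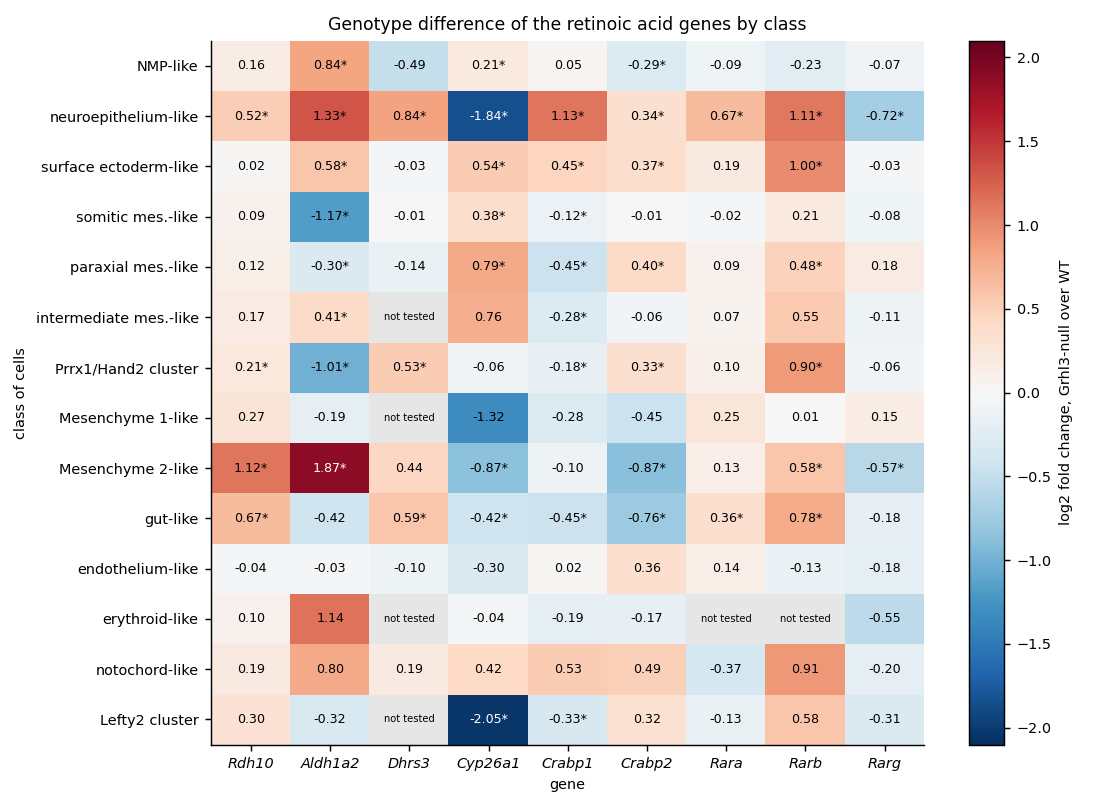
Log2 fold change of null over WT for each member (columns) in 14 classes (rows), from edgeR, with an asterisk where the adjusted p was under 0.05 and grey where the gene was too low to be tested. The neuroepithelium-like row has an asterisk in all 9 columns, and the *Rarb* column has none below 0.

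*Rdh10* was called in 4 of 14 classes and was higher in null cells in each. In the Mesenchyme 2-like class it was at 19.2 and 17.5 CPM in WT and at 40.2 and 39.6 CPM in null libraries. The genotypes did not overlap, and the log2 difference was 1.12 (SE 0.07, adjusted p = 1.4e-08). The gut-like class rose from 6.73 and 6.34 CPM to 11.1 and 10.3 CPM (log2 difference 0.67, adjusted p = 0.0016). In the *Prrx1* and *Hand2* cluster the difference was small, at 15.2 and 14.6 against 16.8 and 17.5 CPM (0.21, adjusted p = 0.033), and it was not called without WT 1 (0.25, adjusted p = 0.061), WT 2 (0.18, adjusted p = 0.15), null 1 (0.24, adjusted p = 0.07) or null 2 (0.19, adjusted p = 0.15). Within female cells alone *Rdh10* was lower in null cells of that cluster (-0.43, adjusted p = 0.0039). The intermediate mesoderm-like class, where *Rdh10* was highest, had overlapping libraries at 40.7, 42.1, 49.5 and 41.1 CPM.

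*Aldh1a2* was called in 8 of 14 classes, 5 higher and 3 lower. The 3 classes in which it was lower were the paraxial and somitic mesoderm-like classes and the *Prrx1* and *Hand2* cluster. The paraxial mesoderm-like class went from 278 and 243 to 217 and 215 CPM, without overlap (log2 difference -0.30, SE 0.05, adjusted p = 0.00098). The somitic mesoderm-like class went from 44.4 and 45.5 to 19.1 and 21.0 CPM (-1.17, adjusted p = 6.1e-09). In the *Prrx1* and *Hand2* cluster it was at 26.4 and 27.0 CPM in WT and 13.2 and 13.1 CPM in null libraries (-1.01, adjusted p = 2.2e-09), again without overlap. These values are over all cells of a class. Within male cells alone *Aldh1a2* was higher in null cells of that cluster (2.13, adjusted p = 2.1e-10).

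In 5 other classes *Aldh1a2* was higher in null cells. The Mesenchyme 2-like class held 11.8 and 12.6 CPM in WT and 45.6 and 43.6 CPM in null libraries, a log2 difference of 1.87 (SE 0.08, adjusted p = 5.3e-11). The neuroepithelium-like class rose from 31.1 and 24.7 to 71.6 and 71.9 CPM (1.33, adjusted p = 5.9e-10). NMP-like cells rose from 7.49 and 7.75 to 14.9 and 12.4 CPM (0.84, adjusted p = 0.00024). None of these 3 comparisons had libraries that overlapped. The intermediate mesoderm-like class (0.41, adjusted p = 0.02) and the surface ectoderm-like class (0.58, adjusted p = 0.042) were called too, on less margin. The first was not called without null 2 (0.30, adjusted p = 0.18), and the second was not called without WT 2 (0.45, adjusted p = 0.24) or null 2 (0.49, adjusted p = 0.14). The surface ectoderm-like difference turned to -0.35 when likely doublets were removed and was -0.15 within female cells alone. The intermediate mesoderm-like difference was -0.081 within male cells alone. Neither value within a sex was called.

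*Dhrs3* was called in 3 of the 10 classes in which it could be tested, always higher in null cells. It rose in the neuroepithelium-like class from 3.2 and 3.39 to 5.55 and 6.56 CPM (log2 difference 0.84, SE 0.16, adjusted p = 0.0008) and in the *Prrx1* and *Hand2* cluster from 5.29 in both WT libraries to 7.14 and 8.12 CPM (0.53, adjusted p = 0.0022). The gut-like class had 5.29 and 7.81 against 9.67 and 10.3 CPM (0.59, adjusted p = 0.012), and was not called without WT 1 (0.31, adjusted p = 0.24). In the surface ectoderm-like class, its highest, the libraries overlapped at 10.6, 9.28, 10.8 and 9.14 CPM.

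*Cyp26a1* was called in 8 of 14 classes, 4 higher and 4 lower. The neuroepithelium-like class had 40.2 and 45.6 CPM in WT and 10.1 and 14.4 CPM in null libraries, so that the enzyme fell by 1.84 on the log2 scale (SE 0.10, adjusted p = 8.6e-10) in the class in which *Aldh1a2* rose. It also fell in the gut-like class, from 115 and 132 to 86.6 and 102 CPM (-0.42, adjusted p = 0.00026). In the Mesenchyme 2-like class it was at 7.54 and 5.84 against 4.12 and 3.23 CPM (-0.87, adjusted p = 0.0049), a call that was lost without null 2 (-0.69, adjusted p = 0.065). The *Lefty2* cluster had 16.1 and 20.2 against 3.88 and 4.54 CPM (-2.05, SE 0.40, adjusted p = 0.0018).

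The classes in which *Cyp26a1* rose were the surface ectoderm-like, somitic mesoderm-like, paraxial mesoderm-like and NMP-like classes. The surface ectoderm-like class went from 79.7 and 68.5 to 116 and 105 CPM (log2 difference 0.54, SE 0.07, adjusted p = 4e-05), and the somitic mesoderm-like class from 78.9 and 94.4 to 111 and 115 CPM (0.38, adjusted p = 0.0011). The paraxial mesoderm-like class, low in WT at 10.9 and 19 CPM, stood at 29.3 and 22.5 CPM in null libraries (0.79, adjusted p = 0.0061). It was not called without WT 1, where the difference was 0.42 (adjusted p = 0.12). NMP-like cells had 169 and 166 CPM in WT and 182 and 210 CPM in null libraries (0.21, adjusted p = 0.013), and this call was lost without WT 1 (0.22, adjusted p = 0.057) or WT 2 (0.20, adjusted p = 0.077). In both trunk mesoderm classes the synthesis enzyme was thus lower and the degrading enzyme higher in null libraries. Within male cells alone the sign of *Cyp26a1* was the opposite in all 4 of these classes, at -0.49 in the surface ectoderm-like class (adjusted p = 0.014), and at -0.31 in the paraxial mesoderm-like, -0.16 in the somitic mesoderm-like and -0.12 in the NMP-like class, these 3 not called.

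*Crabp1* was called in 8 of 14 classes and was lower in 6. The paraxial mesoderm-like class had 264 and 265 CPM in WT and 197 and 199 CPM in null libraries, with close repeats and no overlap (log2 difference -0.45, SE 0.03, adjusted p = 1.1e-06). The *Prrx1* and *Hand2* cluster had 442 and 463 against 390 and 404 CPM (-0.18, adjusted p = 0.0022). The 2 classes in which it rose were ectodermal. It went from 53.8 and 59.3 to 136 and 117 CPM in the neuroepithelium-like class (1.13, SE 0.07, adjusted p = 2.6e-09) and from 334 and 392 to 493 and 524 CPM in the surface ectoderm-like class (0.45, adjusted p = 7.2e-05). The remaining calls were small or rested on single libraries. The gut-like class (-0.45, adjusted p = 0.0054) was not called without WT 2 (-0.22, adjusted p = 0.16), and the *Lefty2* cluster (-0.33, adjusted p = 0.0054) was not called without WT 2 (-0.28, adjusted p = 0.099). The intermediate mesoderm-like class (-0.28, adjusted p = 0.049) lost its call without WT 1 (-0.18, adjusted p = 0.38) or null 1 (-0.19, adjusted p = 0.24). The somitic mesoderm-like class (-0.12, adjusted p = 0.032) lost it without WT 1 (-0.11, adjusted p = 0.26), WT 2 (-0.13, adjusted p = 0.16) or null 2 (-0.11, adjusted p = 0.073).

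*Crabp2* was called in 7 of 14 classes, 4 higher and 3 lower. It rose in the neuroepithelium-like class from 675 and 680 to 871 and 885 CPM (log2 difference 0.34, SE 0.03, adjusted p = 6.5e-07). In the paraxial mesoderm-like class it went up from 124 and 127 to 165 and 175 CPM (0.40, adjusted p = 1.1e-05), opposite to *Crabp1* there. The surface ectoderm-like class (309 and 305 against 410 and 401 CPM) and the *Prrx1* and *Hand2* cluster (75.7 and 81.3 against 94.4 and 102 CPM) rose by a similar amount, 0.37 and 0.33 on the log2 scale. No WT library reached a null library in any of these 4 classes. It fell in the Mesenchyme 2-like class from 117 and 108 to 68.4 and 54.7 CPM (-0.87, adjusted p = 4.2e-07), in the gut-like class from 93.7 and 94.0 to 54.2 and 59.3 CPM (-0.76, adjusted p = 9e-09), and in NMP-like cells from 459 and 448 to 383 and 366 CPM (-0.29, adjusted p = 0.00026). Within male cells alone it was higher in null cells of the Mesenchyme 2-like class (0.86, adjusted p = 0.0011). Over all cells *Crabp2* was at 253, 253, 259 and 259 CPM, and it was the 1 member not called there (0.01, adjusted p = 0.88).

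Of the receptors, *Rarb* was called in 6 of 13 classes and, in sums over all cells of a class, was higher in null cells in all 6. Within female cells alone its sign was the opposite in the surface ectoderm-like (-0.071), gut-like (-0.18) and Mesenchyme 2-like (-0.36) classes. Within male cells alone it was the opposite in the paraxial mesoderm-like class (-0.063). None of these differences within a sex was called. The values that follow are over all cells of a class. The neuroepithelium-like class rose from 9.79 and 10.1 to 21.1 and 23.1 CPM (log2 difference 1.11, SE 0.08, adjusted p = 5.4e-08), the surface ectoderm-like class from 3.13 and 3.42 to 7.03 and 6.32 CPM (1.00, adjusted p = 0.0017), and the *Prrx1* and *Hand2* cluster from 3.13 and 2.79 to 5.00 and 6.01 CPM (0.90, adjusted p = 0.0002). The gut-like (0.78, adjusted p = 0.00045) and Mesenchyme 2-like (0.58, adjusted p = 0.0015) classes followed. The paraxial mesoderm-like class had 5.27 and 5.08 against 7.56 and 7.25 CPM (0.48, adjusted p = 0.0069) and missed the threshold without WT 2 (0.46, adjusted p = 0.052).

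*Rara* was called in 2 of 13 classes, both higher. It rose in the neuroepithelium-like class from 11.5 and 9.69 to 17.3 and 17.1 CPM (log2 difference 0.67, SE 0.09, adjusted p = 7.1e-05). The gut-like class went from 16.7 and 17.1 to 23.1 and 21.3 CPM (0.36, adjusted p = 0.0064), which was not called without null 1 (0.30, adjusted p = 0.074). *Rarg* was called in 2 of 14 classes, both lower. It fell in the neuroepithelium-like class from 26.8 and 26 to 16.7 and 16.1 CPM (-0.72, SE 0.07, adjusted p = 9.8e-07) and in the Mesenchyme 2-like class from 30.4 and 29.3 to 21.1 and 19 CPM (-0.57, adjusted p = 6.1e-05). In NMP-like cells, where *Rarg* was high, the libraries overlapped at 55.4, 56.6, 52.5 and 55.5 CPM.

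In sums over all its cells the neuroepithelium-like class thus had 9 of 9 members called. Of these, *Aldh1a2*, *Crabp1* and *Rarb* were higher and *Cyp26a1* was lower by at least a factor of 2. Within male cells alone *Dhrs3* had the opposite sign (-0.53), as did *Rarg* within female cells (0.025), neither of them called. Several other facts differed between the genotypes in this class. The class held 9.64% and 12.5% male cells in the WT libraries and 82.9% and 85.0% in the null libraries. Its posterior Hox genes summed to 185 and 183 CPM in WT and 1.74 and 0.429 CPM in null cells, and the caudal *Fgf8* went from 86.3 and 78.2 to 17.7 and 19.97 CPM. The part of these shifts in the values of the members was not tested. Without WT 1, all 9 calls in this class were lost. Their adjusted p values then lay between 0.096 and 0.2, the log2 differences moved from 1.33 to 1.51 for *Aldh1a2* and from -1.84 to -1.92 for *Cyp26a1*, and the *Rara* difference moved from 0.67 to 0.80. Without WT 2, 3 of the 9 calls were lost there: *Dhrs3* (0.88, adjusted p = 0.098), *Rara* (0.54, adjusted p = 0.063) and *Rdh10* (0.48, adjusted p = 0.12).

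Male and female cells of a pool came from different embryos, so the comparison of genotypes was repeated within each. Within male cells 36 of 105 member and class pairs were called (24 higher, 12 lower), with 6.64% of all pairs of a gene and a class called. Within female cells 30 of 107 were called (16 higher, 14 lower), with 13.3% of all pairs called. Of the 48 pairs called in all cells, 46 had a value in both sexes. The sign was the same in male and female cells in 25 of them and opposite in 21 (this split was not counted over all genes). A test of the difference itself, the genotype by sex term in edgeR, was called in 39 of 107 pairs, where 9.84% of all pairs were called.

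**Figure D3:**
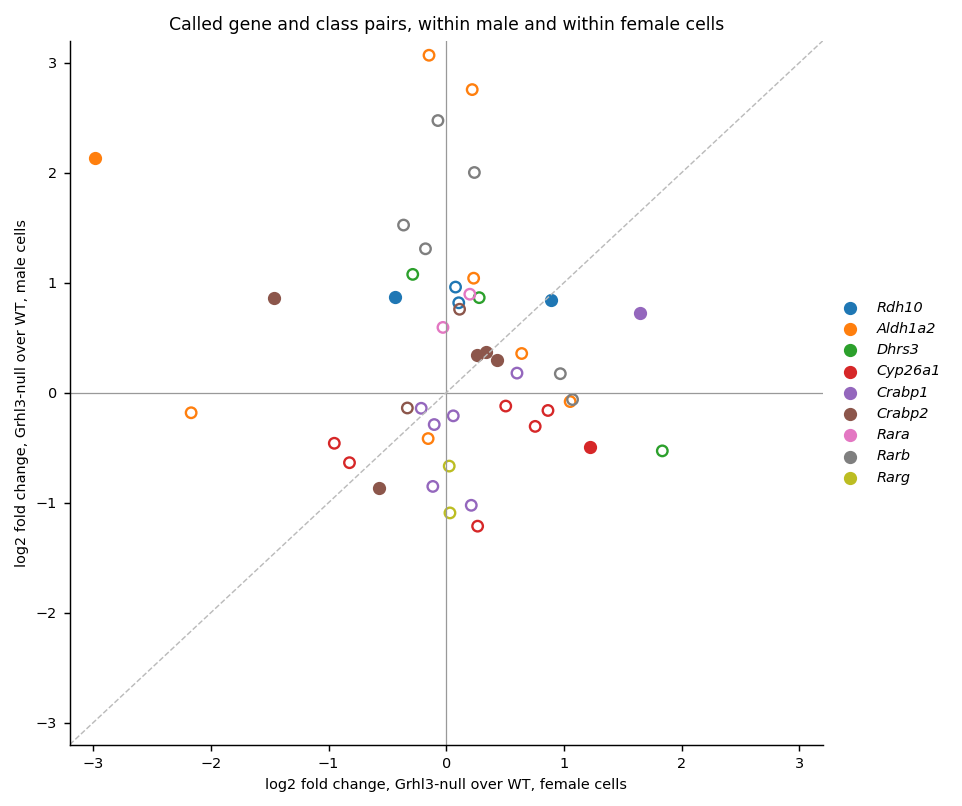
Log2 fold change of null over WT within male cells (vertical axis) against that within female cells (horizontal axis) for the 46 pairs of a member and a class called in all cells of the class, coloured by gene. Filled points are the 10 pairs called in both sexes, and the 21 pairs to the upper left and lower right of the axes have opposite signs.

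In all, 10 pairs were called in both sexes (the share over all genes was not counted), and 6 of them had the same sign. *Crabp2* made up 4 of these. In the neuroepithelium-like class it was at 715 and 750 against 900 and 912 CPM in male cells (log2 difference 0.34, adjusted p = 0.00055) and at 672 and 677 against 860 and 802 CPM in female cells (0.26, adjusted p = 3.6e-05). In the paraxial mesoderm-like class male cells had 107 and 111 against 141 and 144 CPM and female cells 107 and 112 against 136 and 139 CPM. In the gut-like class it fell in both, from 74.7 and 79.0 to 45.8 and 41.6 CPM in male cells and from 103 and 102 to 63.5 and 73.9 CPM in female cells. The *Prrx1* and *Hand2* cluster was the last of the 4. In each of these the null libraries lay on 1 side of the WT libraries within each sex, which a call in both sexes makes likely.

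The other pairs of the same sign were *Crabp1* in the neuroepithelium-like class and *Rdh10* in the Mesenchyme 2-like class. *Crabp1* went from 80.3 and 70.7 to 131 and 111 CPM in male cells and from 46.7 and 54.1 to 173 and 152 CPM in female cells, with a larger difference in female cells (genotype by sex term -0.91, adjusted p = 7.2e-05). *Rdh10* went from 23.4 and 25.9 to 45.7 and 43.0 CPM in male cells and from 18.6 and 15.7 to 27.1 and 34.6 CPM in female cells, log2 differences of 0.84 and 0.89. For *Crabp1* the direction was the same in both sexes and the size was not.

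The other 4 pairs called in both sexes had opposite signs. *Aldh1a2* in the *Prrx1* and *Hand2* cluster was the most extreme. Male cells held 4.79 and 4.89 CPM in WT and 21.3 and 20.9 CPM in null libraries (log2 difference 2.13, adjusted p = 2.1e-10), while female cells held 43.7 and 46.5 against 5.36 and 6.12 CPM (-2.98, adjusted p = 1.2e-12). The genotype by sex term was 5.11 (adjusted p = 7e-16), although the share of male cells in this cluster was alike in the libraries, at 43.7%, 44.1%, 39.6% and 41.5%. *Cyp26a1* in the surface ectoderm-like class was at 114 and 89.7 against 85.4 and 55.5 CPM in male cells (-0.49) and at 65.6 and 60.2 against 154 and 151 CPM in female cells (1.22). *Crabp2* in the Mesenchyme 2-like class was at 39.5 and 32.0 against 74.7 and 56.1 CPM in male cells (0.86) and at 134 and 129 against 57.4 and 38.5 CPM in female cells (-1.46). The last was *Rdh10* in the *Prrx1* and *Hand2* cluster, higher in male (0.87) and lower in female null cells (-0.43).

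**Figure D4:**
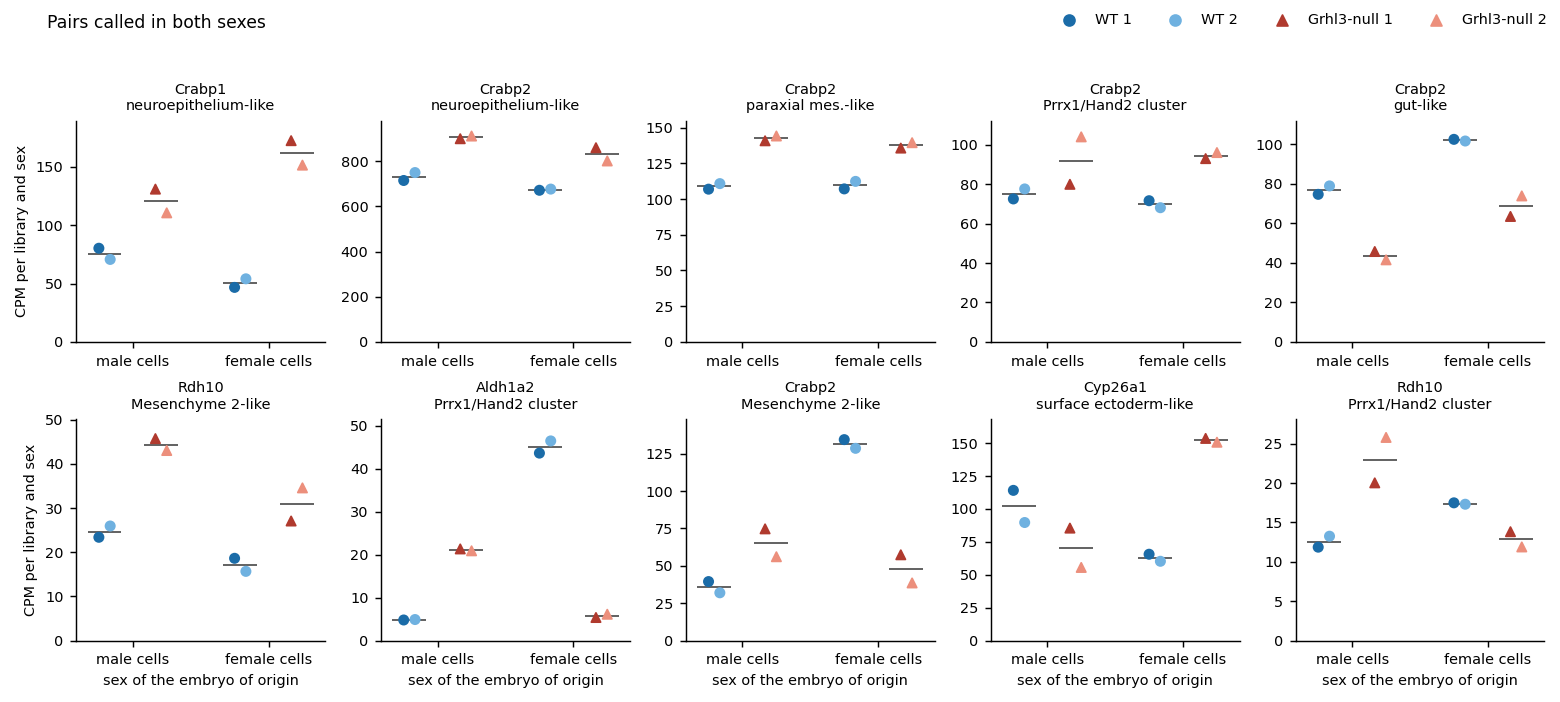
CPM per library in male and in female cells for the 10 pairs called in both sexes, with circles for WT libraries, triangles for *Grhl3*-null libraries and a line at the mean of each group. Axes start at 0, and the first 6 panels move the same way in both sexes and the last 4 in opposite ways.

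Some of the largest differences over all cells of a class were weaker within a sex. *Cyp26a1* in the neuroepithelium-like class was at 12.3 and 9.01 against 5.39 and 9.24 CPM in male cells, where the libraries overlapped (log2 difference -0.46, adjusted p = 0.4), and at 44.5 and 54.4 against 17.3 and 35.8 CPM in female cells (-0.95, adjusted p = 2.1e-05). WT male neuroepithelium-like cells were thus low in *Cyp26a1*, as null male cells were, while null female cells were higher. The WT male cells also held 6.14 and 1.73 CPM of posterior Hox genes against 213 and 227 CPM in WT female cells. *Aldh1a2* there rose by 1.04 in male cells (adjusted p = 0.00014) and differed by 0.23 in female cells (adjusted p = 0.17). In the somitic mesoderm-like class *Aldh1a2* was at 23.5 and 28.4 against 24.3 and 21.5 CPM in male cells and at 64.4 and 54.3 against 11.8 and 14.8 CPM in female cells (-2.17), and the genotype by sex term was 1.98 (adjusted p = 1.7e-08).

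Gates on genes outside the set placed cells along the neural and paraxial axes without clusters. A gate gene counted as present at 2 or more UMIs, and gates can overlap. In cells with *T* and *Sox2*, the marks of NMPs, 6 of 9 members were called (4 higher, 2 lower), beside 23% of all genes. In cells with *Nkx1-2* and *Sox2* without *T* (pre-neural cells) 2 of 9 were called, beside 4.35%, and in cells with *Pax6* without *Nkx1-2* (the *Pax6* gate) 2 of 9, beside 2.45%. All 4 of these calls were higher. The *Pax6* gate is grouped with the neural gates here, but it asked for no other neural gene. It held 110 and 109 WT and 205 and 224 null cells. *Pax6* itself was higher in null cells of the paraxial (2.18, adjusted p = 3.7e-08) and intermediate (2.33, adjusted p = 6.8e-05) mesoderm-like classes. How many cells of the gate were neural was not tested. In paraxial cells with *Tbx6* without *Meox1* 3 of 9 were called (1 higher, 2 lower), beside 21.9%, with both genes 6 of 9 (4 higher, 2 lower), beside 20.7%, and with *Meox1* without *Tbx6* 2 of 9 (both higher), beside 7.39%.

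In sums over all cells of a neural gate *Aldh1a2* was higher in null libraries in each of the 3 gates. Cells with *T* and *Sox2* had 27.7 and 19.9 against 47.0 and 42.6 CPM (log2 difference 0.91, adjusted p = 0.0011), pre-neural cells 19.6 and 23.6 against 75.0 and 69.5 CPM (1.72, adjusted p = 8.4e-06) and *Pax6* cells 46.2 and 34.1 against 63.2 and 77.5 CPM (0.80, adjusted p = 0.0036). Summed in the same way, *Cyp26a1* was at 140, 138, 132 and 144 CPM in cells with *T* and *Sox2*, at 21.2, 13.2, 14 and 14.3 CPM in pre-neural cells and at 45.3, 49.1, 40.7 and 42.4 CPM in *Pax6* cells, and was not called in these gates (log2 differences -0.02, -0.30 and -0.19).

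Within a sex the gates gave other values, and the genotype by sex term was called in 20 of 53 member and gate pairs, where 8.4% of all pairs were called. For *Aldh1a2* it was called in all 3 neural gates. Male cells rose by 1.61 with *T* and *Sox2*, 2.04 in the pre-neural gate and 1.88 in the *Pax6* gate, while female cells differed by -0.25, 0.14 and -0.70, none of them called. *Cyp26a1* in the *Pax6* gate changed in opposite directions in the sexes, beneath the sums that overlapped. Male cells held 118 and 98.4 CPM in WT and 4.82 and 11.9 CPM in null libraries (log2 difference -3.68, adjusted p = 4.6e-07), whereas female cells held 19.4 and 37.4 against 213 and 255 CPM (2.99, adjusted p = 6.9e-10). The groups did not overlap in either sex, and the WT male sums rest on 21 and 12 cells and the null female sums on 27 and 20. With *T* and *Sox2* it was lower in male (-0.37, adjusted p = 0.015) and higher in female null cells (0.58, adjusted p = 0.0003). Cells among the 5% highest doublet scores of a library made up 13.1% to 15.6% of the *T* and *Sox2* gate, and *Aldh1a2* was still called there, and higher in null libraries, when they were left out.

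Along the paraxial gates *Cyp26a1* was lower and *Aldh1a2* higher at each later gate in every library. *Aldh1a2* went from 15.1, 11.4, 12.6 and 10.4 CPM in cells with *Tbx6* alone to 157, 141, 120 and 102 CPM with both genes and 169, 160, 171 and 178 CPM with *Meox1* alone. Only the middle gate was called (-0.45, adjusted p = 4.6e-05). *Cyp26a1* rose in null cells with *Tbx6* alone, from 145 and 143 to 180 and 211 CPM (0.43, adjusted p = 0.00023), and with both genes, from 35.8 and 36.4 to 65.2 and 44.2 CPM (0.59, adjusted p = 0.0008), and was at 18.3, 15.2, 17.6 and 21.0 CPM with *Meox1* alone. These calls were made in female cells (*Aldh1a2* -1.07 in the middle gate, *Cyp26a1* 0.69 and 0.96) and not in male cells (0.20, 0.083 and 0.41). The null cells of the middle gate were deeper, with medians of 85492 and 87256 UMIs against 54669 and 54767 in WT. Cells among the 5% highest doublet scores of a library made up 18.3% and 14.6% of this gate in WT libraries. In the null libraries they made up 22.6% and 21.5% of it.

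**Figure D5:**
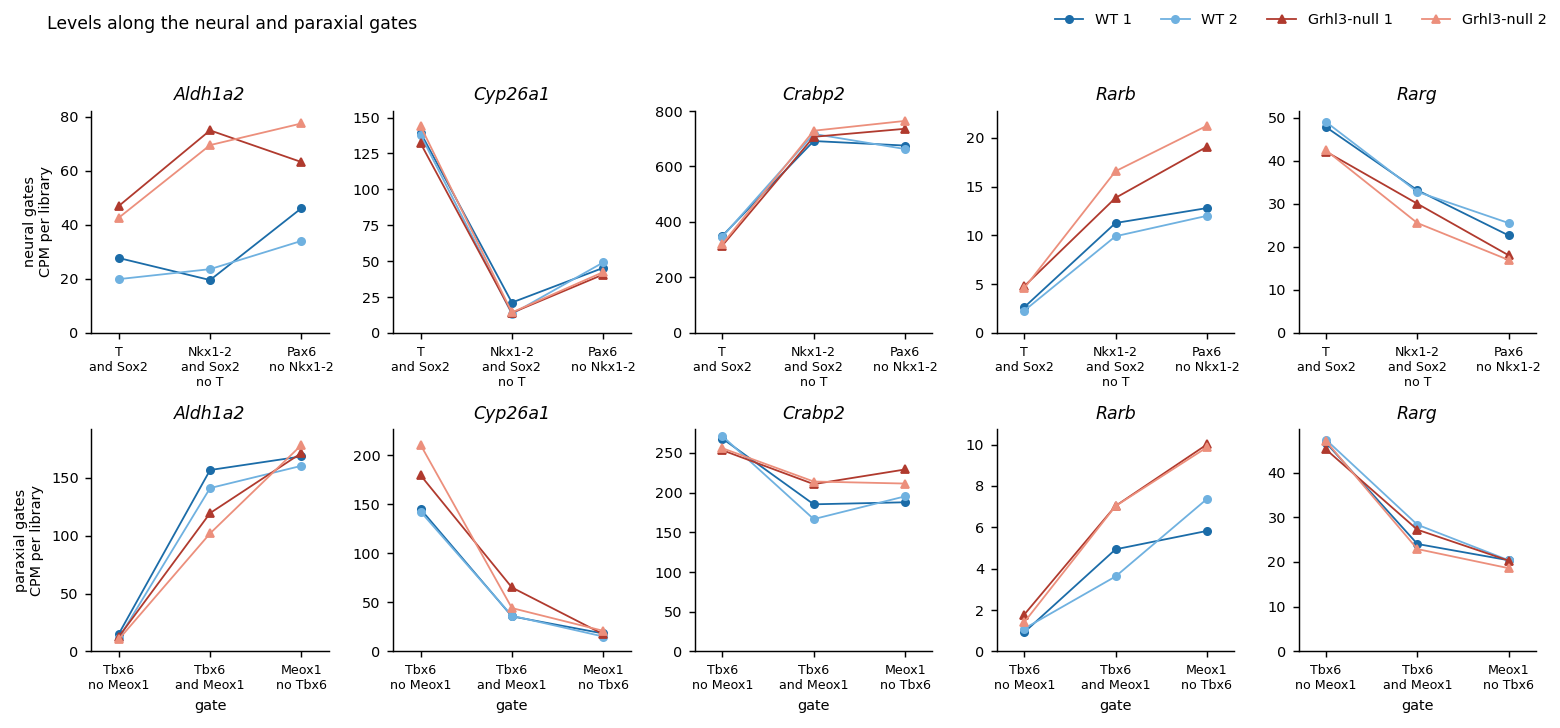
CPM per library of 5 members in 3 neural gates (upper panels) and 3 paraxial gates (lower panels), ordered from caudal to more differentiated cells, with a line for each library. In every library *Cyp26a1* is highest and *Rarb* lowest in the first gate of each row.

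*Aldh1a2* and *Cyp26a1* were also counted in the same cells. After thinning to 7500 UMIs, 10.6% of the WT 1 cells with *Aldh1a2* also held *Cyp26a1* (95% interval 8.5% to 12.9%), against 25.5% (24.2% to 26.8%) of the cells without it. The shares were 10.2% against 25.6% in WT 2, 9.92% against 22.9% in null 1 and 9.98% against 22.4% in null 2. Within the somitic mesoderm-like class they were 15.3% against 35.1% and 15.0% against 35.4% in the WT libraries. In the null libraries of that class they were 25.8% (11.9% to 44.6%) against 38.4% and 12 of 40 cells (16.6% to 46.5%) against 42.5%, with intervals that overlap those of the cells without *Aldh1a2*. Intervals are Clopper-Pearson and cover counting error only.

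Other genes of the pathway were taken as lists, whose counts and medians are descriptions. Of 16 genes of retinoid metabolism and transport, 8 were tested in the neuroepithelium-like class, where 23.2% of all genes were called. Of these 8, 2 were called higher and 4 lower (median log2 difference -0.19). *Ttr* and *Rbp4*, which carry retinol in the blood, were the 2 that were higher. In the gut-like class *Ttr* rose from 169 and 248 to 506 and 492 CPM (1.22, adjusted p = 2.6e-08) and *Rbp4* rose by 1.05 (adjusted p = 3.6e-11). In the neuroepithelium-like class *Ttr* was at 0.812, 0.313, 2.97 and 3.64 CPM, a level that moved with that of the gut and whose source was not tested. *Stra6*, the receptor that takes up retinol, fell there by 0.76 (adjusted p = 1.7e-05). Among 10 receptor partners and cofactors, 1 was called in the neuroepithelium-like class (23.2% of all genes) and 1 in the *Prrx1* and *Hand2* cluster (11.7% of all genes). In both it was *Nrip1*, a ligand-dependent corepressor. It was higher in the neuroepithelium-like class (0.53, adjusted p = 3.1e-07) and in the *Prrx1* and *Hand2* cluster (0.48, adjusted p = 1.4e-07). In NMP-like cells 1 of the 10 was higher and 1 lower, beside 19.3% of all genes. The lower one was *Rxrg* (-1.05, adjusted p = 3.7e-05).

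Genes that retinoic acid is known to induce made up a list of 14, without the members. In the neuroepithelium-like class 12 were tested, 7 higher and 2 lower, beside 23.2% of all genes called. The median log2 difference was 0.39 against 0.006 for all genes. *Nr2f1*, an orphan nuclear receptor, rose from 13.7 and 15.3 to 47.6 and 50.7 CPM (1.73, adjusted p = 7.7e-12) and *Pax6*, which also marks the class, from 56.2 and 64.5 to 125 and 126 CPM (1.02, adjusted p = 4e-10). The 2 genes of the list that fell there were *Hoxa4* (-0.39, adjusted p = 0.0014) and *Hoxb1* (-0.14, adjusted p = 0.033). The Mesenchyme 2-like class had 7 of 11 higher and 0 lower, beside 20.5% of all genes called. The paraxial mesoderm-like class had 7 higher and 1 lower of 11, beside 21%. The gut-like class had 6 higher and 3 lower of 12 (19.5%), and NMP-like cells 5 higher and 3 lower of 11 (19.3%). The somitic mesoderm-like class had 5 higher and 1 lower of 11 (11.5%). The *Prrx1* and *Hand2* cluster had 5 higher and 1 lower of 10 (11.7%), and the surface ectoderm-like class 4 higher and 2 lower of 11 (13.9%). The notochord-like class had 6 higher and 0 lower of 11 (1.87%), and the intermediate mesoderm-like class 2 higher and 0 lower of 10 (3.04%). In the *Lefty2* cluster 3 were higher and 2 lower of 9 (4.09%), with a median of -0.01. The Mesenchyme 1-like class had 0 of 9 called (0.753%), with a median of -0.34. The endothelium-like class had 0 of 11 (0.55%) and the erythroid-like class 0 of 8 (0.303%). The list is not independent of the classes, as *Pax6* was among the markers that named the neuroepithelium-like class. *Cdx1* was likewise a marker of the NMP-like class and *Hoxb1* of the somitic mesoderm-like class. *Nr2f1*, *Nr2f2* and *Meis1* were markers of the intermediate mesoderm-like class.

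Genes of the caudal Fgf and Wnt domain, which opposes retinoic acid, were the other list. In the neuroepithelium-like class 5 of 6 tested were lower and 0 higher (median log2 difference -1.72), among them *Fgf17* (-3.02) and *Fgf8* (-2.16). The gut-like class had 6 of 6 lower and the paraxial mesoderm-like class 5 of 7 higher and 0 lower. NMP-like cells had 2 of 7 lower and 0 higher, with a median of -0.05. The somitic mesoderm-like class had 1 of 7 lower and 0 higher, and the *Prrx1* and *Hand2* cluster 6 of 7 lower and 1 higher. Of all genes, 23.2% were called in the neuroepithelium-like, 19.5% in the gut-like, 21% in the paraxial mesoderm-like and 19.3% in the NMP-like class. The share was 11.5% in the somitic mesoderm-like class and 11.7% in the *Prrx1* and *Hand2* cluster. *Cyp26a1* itself was lower in the neuroepithelium-like and gut-like classes, higher in the paraxial mesoderm-like, NMP-like and somitic mesoderm-like classes and not called in the *Prrx1* and *Hand2* cluster (-0.06).

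For each member the genes outside the lists whose WT levels over 14 classes were most like its own were found among 9693 genes, by Pearson r of log2(CPM + 1). *Smarcd3*, a chromatin remodelling subunit of mesoderm, was most like *Aldh1a2* (r = 0.90), and *Gldc*, of glycine cleavage, most like *Cyp26a1* (r = 0.85). The homeobox gene *Evx1* (r = 0.93) and its antisense gene *Evx1os* (r = 0.94) followed *Rps6ka6* (r = 0.94) in likeness to *Rarg*, and the reads of an antisense pair cannot always be told apart. The remaining first places were *Asb8* for *Rdh10* (0.88), *Capg* for *Dhrs3* (0.81), *Zbtb22* for *Crabp1* (0.92), *Nrxn2* for *Crabp2* (0.90), *Zbed3* for *Rara* (0.98) and *Fdft1* for *Rarb* (0.87). In null cells, which did not enter the ranking, the same pairs had r between 0.45 for *Asb8* and 0.93 for *Rps6ka6*. These values have 14 points that share libraries and depth, and are descriptions.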

How the data were processed

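Single-cell RNA sequencing was measured in 4 libraries, 2 WT and 2 *Grhl3*-null, grouped by the sample labels. The authors aligned reads to mm10 with Cell Ranger 3.0.0 and deposited whole-number UMI counts per gene and cell, before their own filters. The counts were used as deposited. Whether counting used strand beyond the tool's default is not given in the sources used here. Reads, spliced and unspliced counts and velocity were not analysed here.

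Cells needed at least 3000 genes, 7500 UMIs and at most 7% mitochondrial UMIs. Normalisation (sctransform 0.4.2) and clustering (Seurat 5.3.0, R 4.3.3) used no integration (3000 variable features, less the 18 retinoid genes among them, 30 principal components, resolution 0.4). Clusters were named from the study's published marker lists, which were drawn from these same libraries, so names are rebuilt and can differ from the study's. Doublets were kept, and the 5% highest Scrublet scores per library (scanpy 1.11.5) were removed in an alternative, since a caller's own threshold had marked too few cells. Droplet barcodes shared by a pair of libraries were at most 16. A cell was male where Y-linked UMIs reached 2 with *Xist* at 2 or fewer, and female where *Xist* reached 3 with Y-linked UMIs at 1 or fewer.

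UMIs were summed per class and library and tested with edgeR 4.0.16 (TMM, filterByExpr, quasi-likelihood, Benjamini-Hochberg per class) in classes with at least 20 cells in each library. Classes with at least 10 cells in each sum entered the genotype by sex test. No replicate term was used. By chi-square over genes, repeat libraries were not copies of each other (7.77 per degree of freedom in WT, 13.6 in null). They are 2 reactions of 1 pool, not separate sets of embryos. Fits were tested on simulated data with 100 genes changed by 0.5 and 100 by 1 on the log2 scale. Of those changed by 0.5, 96 were recovered in the neuroepithelium-like class (12874 genes), 84 in the Mesenchyme 2-like class (12358 genes) and 100 in the paraxial mesoderm-like class (13321 genes), with 7, 14 and 16 wrong calls. All 100 changed by 1 were recovered in each. The simulated counts used the same dispersion for every gene of a class and held no difference between pools, embryos or sexes. The recovery therefore says nothing of what lies behind the calls in the real pools. Alternatives were DESeq2 1.42.0, other filters, clusterings and doublet handling, leaving out a library, a replicate block, and male or female cells alone or sex as a term.

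Every member is named in the text. The other genes named are the 2 with the largest change in each direction among those called in each list and class, the genes that set gates, *Grhl3*, leading genes of unnamed clusters and the genes most like each member (at least 10 CPM in some class). *Top2b* was chosen after its values were seen. Some genes of the lists that the rule would name are not reported here. *Hoxd4* of the induced list has 2 rows in the matrix and was left out. The members, lists and tests were chosen with earlier results of these data known. Plots were drawn with matplotlib 3.10.9 in Python 3.11.15, and intervals with scipy 1.17.1.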

Additional observations from a re-analysis of the deposited data

Results flagged for a closer look

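In 39 pairs of a member and a class the difference between genotypes was not the same in male as in female cells (edgeR's genotype by sex term, adjusted p under 0.05). Values are the log2 difference in male cells minus that in female cells. The sums of a library share its reaction, and the embryos behind each sex could not be told apart.

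The term was most often called for *Crabp1*, *Aldh1a2*, *Cyp26a1*, *Rarb* and *Dhrs3*. For *Aldh1a2* it was 5.11 in the *Prrx1* and *Hand2* cluster, 3.23 in the surface ectoderm-like class, 2.54 in the Mesenchyme 2-like class, 1.98 in the somitic mesoderm-like class, 0.82 in the neuroepithelium-like class and -1.13 in the intermediate mesoderm-like class. For *Cyp26a1* it was 5.52 in the intermediate mesoderm-like class, where the male WT cells held 1 and 0 of its UMIs, 3.08 in the Mesenchyme 1-like class, where the libraries held 6 to 38 of its UMIs in each sex, and negative in the surface ectoderm-like (-1.70), gut-like (-1.48), somitic mesoderm-like (-1.03) and NMP-like (-0.63) classes. The enzymes of synthesis and degradation thus had terms of opposite sign in the surface ectoderm-like and the somitic mesoderm-like class.

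*Rdh10* had a term of 1.3 in the *Prrx1* and *Hand2* cluster. For *Dhrs3* it was 1.36 in the gut-like, 1.35 in the surface ectoderm-like, 1.31 in the paraxial mesoderm-like and 1.21 in the NMP-like class, and -2.36 in the neuroepithelium-like class.

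All 7 terms of *Crabp1* were negative, at -1.23 in the intermediate mesoderm-like, -1.19 in the endothelium-like, -0.91 in the neuroepithelium-like, -0.73 in the paraxial mesoderm-like, -0.42 in the surface ectoderm-like and -0.27 in the somitic mesoderm-like class and -0.19 in the *Prrx1* and *Hand2* cluster. All 4 of *Crabp2* were positive, at 2.32 in the Mesenchyme 2-like, 0.97 in the intermediate mesoderm-like, 0.65 in the surface ectoderm-like and 0.19 in the NMP-like class.

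Among the receptors, *Rara* had a term of 0.62 in the gut-like class, at the threshold. *Rarb* had 2.93 in the endothelium-like, 2.56 in the surface ectoderm-like, 1.89 in the Mesenchyme 2-like and 1.49 in the gut-like class and 1.76 in the *Prrx1* and *Hand2* cluster, but -0.79 in the neuroepithelium-like and -1.12 in the paraxial mesoderm-like class. *Rarg* had -1.13 in the Mesenchyme 2-like and -0.69 in the neuroepithelium-like class.

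In the gates the term was called in 20 pairs. In cells with *T* and *Sox2* it was 1.87 for *Aldh1a2*, -0.95 for *Cyp26a1* and 0.23 for *Crabp2*. In pre-neural cells it was 1.91 for *Aldh1a2*, 0.50 for *Crabp2* and -1.0 for *Rarg*. In cells with *Pax6* without *Nkx1-2* it was -6.65 for *Cyp26a1*, -2.78 for *Crabp1*, -2.69 for *Rarg*, 2.59 for *Aldh1a2*, 2.16 for *Rarb* and 1.73 for *Crabp2*, with 12 and 21 male WT cells and 20 and 27 female null cells. In cells with *Tbx6* without *Meox1* it was 1.83 for *Aldh1a2* and -0.61 for *Cyp26a1*, and with both genes 1.27 for *Aldh1a2* and -0.50 for *Crabp1*. In cells with *Meox1* without *Tbx6* it was -1.59 for *Rarg*, 1.11 for *Dhrs3*, -0.75 for *Crabp1* and 0.69 for *Rdh10*.

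In sums over all cells of a class, some members moved in opposite directions in different classes, in both libraries of each genotype. The pairs of largest size were *Aldh1a2* at 1.87 in the Mesenchyme 2-like and -1.17 in the somitic mesoderm-like class, *Cyp26a1* at 0.79 in the paraxial mesoderm-like class and -2.05 in the *Lefty2* cluster, *Crabp1* at 1.13 in the neuroepithelium-like and -0.45 in the paraxial mesoderm-like class, and *Crabp2* at 0.40 in the paraxial mesoderm-like and -0.87 in the Mesenchyme 2-like class. Not all of these values held within a sex. In male cells alone *Crabp2* was higher in the Mesenchyme 2-like class (0.86, adjusted p = 0.0011). *Cyp26a1* was at -0.31 in the paraxial mesoderm-like class there, and was not called. In the *Lefty2* cluster DESeq2 called 0 members. The difference between the classes was not tested.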

How the results depend on the processing

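The number of member and class pairs called, 48 in the main result, was 31 with DESeq2, 30 in female cells alone, 12 with sex as a term, and 37 to 49 when 1 library was left out. Over all cells, 8 members became 5 in female cells alone, 0 with sex as a term (2 at an unadjusted p under 0.05), and 7 to 8 without 1 library. In the gates, 21 became 12 with DESeq2, 2 with sex as a term, and 16 to 28 without 1 library. The genotype by sex calls, 39, became 24 with DESeq2. Calls among the other lists, 127, became 70 with DESeq2, 75 in male cells, 25 with sex as a term, and 82 (without WT 1) to 114 without 1 library. The other alternatives (no filter, doublets, mitochondrial limit, clustering with retinoid genes, one adjustment over all classes) left each count within a factor of 1.5. The cause of these losses was not tested.

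Of the 48 pairs, 17 lost their call with DESeq2, 15 without WT 1, 10 without WT 2, 5 without null 2 and 3 without null 1, and with sex as a term 34 of 46 did. The class in which a member was highest remained that of the main result for 5 of 9 members at resolution 0.8, and the class of the highest share of cells for 5 of 9 after thinning.

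Replicate numbers did not pair the libraries (correlations of same-numbered libraries -0.16 to 0.09 over classes and gates, 2 pairs). With a replicate block 51 pairs, 8 members over all cells, 25 in gates and 138 of the other retinoid lists were called.

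Reversed signs were found almost only within a sex. In male cells *Aldh1a2* reversed in the intermediate mesoderm-like class (-0.081), the *Prrx1* and *Hand2* cluster (2.13) and the *Tbx6* and *Meox1* gate (0.20), *Crabp2* in the Mesenchyme 2-like class (0.86) and the *T* and *Sox2* gate (0.032), *Cyp26a1* in the NMP-like (-0.12), paraxial mesoderm-like (-0.31), somitic mesoderm-like (-0.16) and surface ectoderm-like (-0.49) classes, *Dhrs3* in the neuroepithelium-like class (-0.53) and *Rarb* in the paraxial mesoderm-like class (-0.063). In female cells, over all cells, *Aldh1a2* (-1.30), *Crabp1* (0.15), *Cyp26a1* (0.37), *Rarb* (-0.17) and *Rarg* (0.19) reversed. By class in female cells, *Aldh1a2* (-0.15) and *Rarb* (-0.071) reversed in the surface ectoderm-like class, *Crabp1* in the intermediate (0.21) and somitic mesoderm-like (0.059) classes, *Cyp26a1* (0.27), *Dhrs3* (-0.29), *Rara* (-0.028) and *Rarb* (-0.18) in the gut-like class, *Rarb* (-0.36) and *Rarg* (0.031) in the Mesenchyme 2-like class, *Rarg* in the neuroepithelium-like class (0.025) and *Rdh10* in the *Prrx1* and *Hand2* cluster (-0.43). By gate they were *Aldh1a2* (-0.70) and *Rarb* (-0.55) with *Pax6*, and *Aldh1a2* (-0.25), *Rarb* (-0.073) and *Rarg* (0.039) with *T* and *Sox2*. With doublets removed *Aldh1a2* reversed in the surface ectoderm-like class (-0.35).

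Depth limits the low genes: *Dhrs3* was too low to test in 4 of 14 classes, and *Rara* and *Rarb* in 1 each.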
